A study of Mus musculus with 8 samples.

Results

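The genes described here encode the mitochondrial folate enzymes *Mthfd2* and *Shmt2*, the serine synthesis enzymes *Phgdh*, *Psat1* and *Psph*, and the transcription factor *Atf4* with its targets *Asns*, *Trib3*, *Ddit3* and *Sesn2*. They are 10 of the 50686 genes in a table of read counts from mouse ventral hippocampus. *Mthfd2* was chosen by its higher count after corticosterone in these same libraries, so its difference between the groups is given as a description, without a test. The other 9 genes were taken by function, as neighbours of *Mthfd2* in metabolism or in the ATF4 response, and *Trib3* is the only one that was too low for the test across genes.

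The RNA came from the ventral hippocampus of male mice of the strain labelled C57B6/J, aged 8 weeks, with 1 library per mouse. The vehicle group (libraries 1 to 4) received vehicle alone, whose composition is not given in the sources used here, and the corticosterone group (libraries 5 to 8) received 3 mg/kg corticosterone, the main glucocorticoid (GC) of rodents. Both groups had a single injection and were killed 3 h later, so 1 dose and 1 time point were measured. The tissue holds all its cell types, and a lower count cannot be told apart between fewer cells of a type and less RNA per cell.

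Serine can be made from the glycolytic intermediate 3-phosphoglycerate in steps catalysed by PHGDH, PSAT1 and PSPH, and in the brain this route is best known from astrocytes and other glia. SHMT2 passes the third carbon of serine to tetrahydrofolate in the mitochondrion and releases glycine, and MTHFD2 oxidizes the resulting folate on the way to formate, which the cytosol uses for purines, thymidylate and methyl groups. ATF4 is a transcription factor of the integrated stress response that is controlled largely through translation of its mRNA, and it raises the genes of serine synthesis, mitochondrial folate metabolism, amino acid transport and tRNA charging when amino acids are short or the endoplasmic reticulum is stressed. GCs act through the glucocorticoid receptor, a transcription factor with its own binding element.

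*Mthfd2* and *Asns* were the members whose groups did not overlap, and their promoters are shown because their values are compared most closely below. The windows run from 250 bases before to 50 bases after the RefSeq start site on GRCm38.p6, and all 10 genes had at least 1 window. That of *Mthfd2* is chr6:83317555-83317854 and that of *Asns* is chr6:7693160-7693459, both on the minus strand and both written 5′ to 3′. Capitals mark a match to TGATGNAA, the core letters of the composite element to which ATF4 binds with C/EBP factors.

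Mthfd2: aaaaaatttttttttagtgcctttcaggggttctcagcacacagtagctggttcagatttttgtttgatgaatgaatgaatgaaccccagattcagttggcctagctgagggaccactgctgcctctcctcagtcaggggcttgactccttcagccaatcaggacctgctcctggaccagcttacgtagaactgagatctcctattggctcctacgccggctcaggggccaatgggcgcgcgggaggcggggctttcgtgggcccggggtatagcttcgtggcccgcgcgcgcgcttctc

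Asns: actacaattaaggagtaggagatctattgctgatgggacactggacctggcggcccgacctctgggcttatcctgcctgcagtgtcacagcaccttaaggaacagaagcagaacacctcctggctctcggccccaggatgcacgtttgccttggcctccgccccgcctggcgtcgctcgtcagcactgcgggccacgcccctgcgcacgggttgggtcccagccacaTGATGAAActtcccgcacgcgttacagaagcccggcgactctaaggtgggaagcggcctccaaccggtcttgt

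The letters TGATGNAA were searched on both strands. The *Asns* window held them once, as TGATGAAA starting at position -23 relative to the RefSeq start site. The *Trib3* window (chr2:152344011-152344310, minus strand) also held 1 match, on the reverse strand and starting at position 14.

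Trib3: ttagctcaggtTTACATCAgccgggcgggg

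No window of the other 8 genes held these letters, which were found in 3.97% of all 32851 promoter windows of this length. The letters ACANNNTGT, the inner part of the inverted repeat of a glucocorticoid response element, were found in none of the members' windows and in 6.85% of all windows. The start site used for *Mthfd2* lies inside the gene as GENCODE draws it, from 83305691 to 83325908 on chromosome 6, so a further start upstream was not searched. The same holds for *Psat1*, whose windows reach 15925309 on chromosome 19, where GENCODE draws the gene to 15947337.

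Between 17492159 and 19931987 reads per library were counted on genes, and the counts below were normalized with the TMM method of edgeR. Genes were compared with edgeR's quasi-likelihood test and Benjamini-Hochberg adjustment over the 16018 genes that passed its filter on low counts. *Fkbp5*, a well-known GC target that encodes a chaperone of the receptor, had 1709 to 2373 normalized counts after vehicle and 3177 to 3510 after corticosterone (adjusted p = 0.0481 from edgeR). Corticosterone library 5, and less so vehicle library 4, stood apart from the rest of their groups in many genes. Within its group, corticosterone library 5 was the highest in 37.2% and the lowest in 36.1% of all genes tested. For vehicle library 4, these shares were 30.5% and 29.9%. The share of ambiguous reads, those that fell on more than 1 gene, was 1.64% to 1.67% in vehicle libraries 1 to 3 and 1.25% to 1.28% in corticosterone libraries 6 to 8. It was 1.40% in vehicle library 4 and 1.48% in corticosterone library 5, so these 2 lay between the others. The share thus went largely with the group. The 5 markers of neurons summed to between 5891 and 6636 CPM (counts scaled by library size) over the 8 libraries, and the 6 markers of astrocytes, of which 5 had negative log2 fold changes (median -0.10), to between 1334 and 1512 CPM. The 5 markers of microglia summed to 263 to 266 CPM after vehicle and to 183 to 255 CPM after corticosterone, without overlap. All 6 markers of oligodendrocytes had negative log2 fold changes (median -0.29), with summed levels of 3094 to 5422 CPM after vehicle and 3024 to 3742 CPM after corticosterone. Of the 4 tested markers of the choroid plexus, 3 had positive log2 fold changes (median 0.91), with summed levels of 21.2 to 67.6 and 31.8 to 70.2 CPM. The log2 fold change was negative in 4 of 5 endothelial and mural markers (median -0.15, 145 to 159 and 130 to 155 CPM in sum) and in 5 of 5 erythrocyte markers (median -0.53, 83.1 to 263 and 80.7 to 105 CPM), and these sums overlapped between the groups. The part of these cell types in the members' values was not tested.

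**Figure D1:**
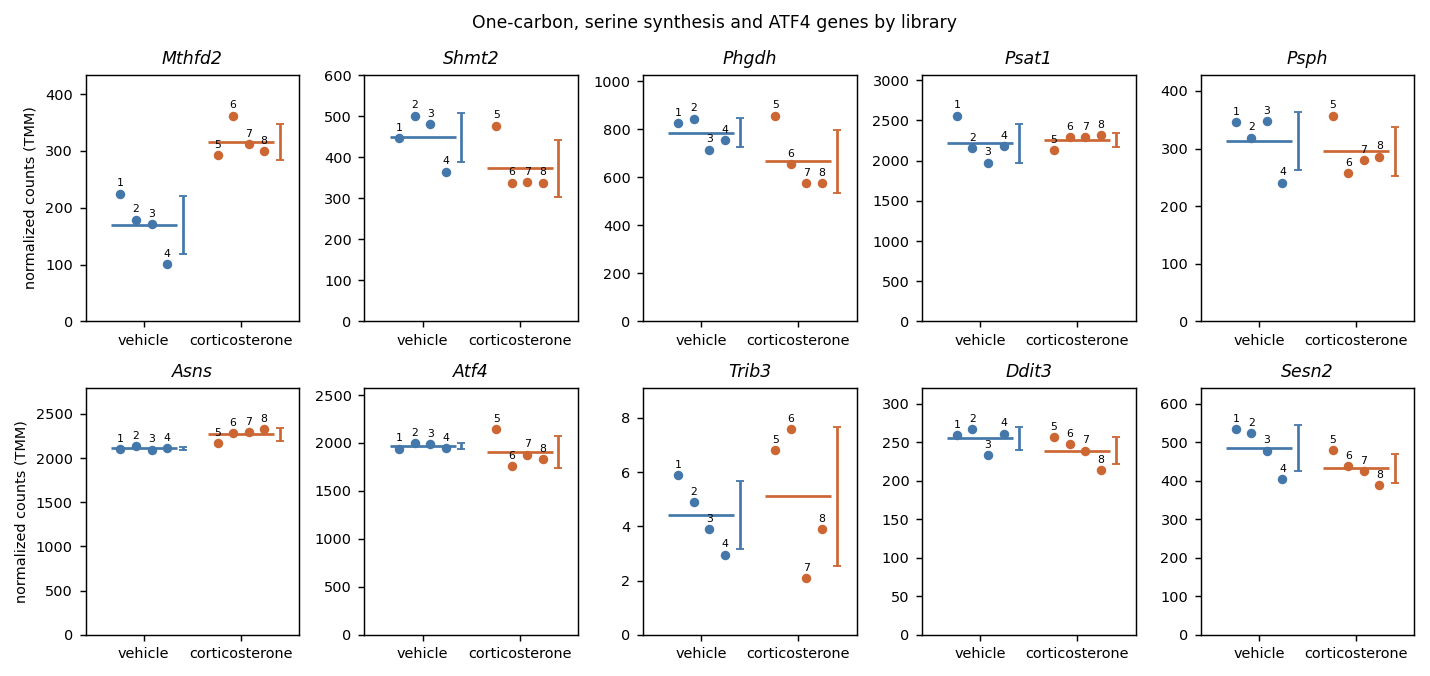
TMM-normalized counts of the 10 genes in each library (points, numbered 1 to 8), with the mean of each group (line) and its SD (bar, n = 4); the axes start at 0. The 4 corticosterone values of *Mthfd2*, between 292 and 362, lie above all vehicle values, which reach 225. Corticosterone library 5 lies within the vehicle range in *Shmt2* and above it in *Phgdh* and *Psph*.

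*Mthfd2* (ENSMUSG00000005667) encodes the mitochondrial methylenetetrahydrofolate dehydrogenase and cyclohydrolase. It had 225, 179, 171 and 101 normalized counts in vehicle libraries 1 to 4. In corticosterone libraries 5 to 8, it had 292, 362, 312 and 299. All corticosterone libraries were thus above all vehicle libraries, and vehicle library 4 was the lowest of the 8. The means were 169 ± 51.3 (SD, n = 4 mice) and 317 ± 31.6 (SD, n = 4), a ratio of 1.87 and a log2 fold change of 0.90 (standard error 0.185). Its coefficient of variation was 30.4% among the vehicle mice and 9.99% among the corticosterone mice, where counting error at its mean of 241 reads gives 6.44%. Leaving out single libraries gave estimates between 0.72 (without vehicle replicate 4) and 1.07 (without vehicle replicate 1).

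Of the genes whose 8 values were most like those of *Mthfd2*, *Ucp2*, a mitochondrial carrier, had the highest Pearson r on the log2 scale, 0.975 over 8 libraries. It was followed by *Sult1a1*, a sulfotransferase (0.969), *Fam220a* (0.966), *Irak2*, a kinase of interleukin-1 receptor signalling (0.965), and *Msrb1*, a methionine sulfoxide reductase (0.961). These 5 were the highest of 11638 genes with a mean of at least 100 normalized counts. All 5 had a higher mean after corticosterone, as the pattern they were picked for has. Among the members, *Asns* was the most like *Mthfd2*, with an r of 0.744, and *Phgdh* the least, with an r of -0.434. These correlations hold the group difference itself, so they describe these libraries only.

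*Shmt2* (ENSMUSG00000025403, chromosome 10 from 127517123 to 127522444) encodes the mitochondrial serine hydroxymethyltransferase, the step that feeds MTHFD2. Its normalized counts were 446, 501, 481 and 365 after vehicle. After corticosterone, they were 477, 338, 339 and 338. Corticosterone libraries 6 to 8 lay below all vehicle libraries, whereas corticosterone library 5 lay among vehicle libraries 1 to 3. The means were 448 ± 59.8 (SD, n = 4) and 373 ± 69.0 (SD, n = 4), a log2 fold change of -0.26 (standard error 0.134, 95% interval -0.55 to 0.03). The adjusted p value was 0.546 in edgeR's quasi-likelihood test, and the exact permutation test over mice gave a two-sided p of 0.0857, where the smallest that 4 against 4 allow is 0.0286. The direction of *Shmt2* was thus the opposite of that of *Mthfd2*, and it did not pass the test. Without corticosterone replicate 5, *Shmt2* reached -0.40 on the log2 scale and an adjusted p value of 0.0347 from the same test, within a range of 0.0347 to 0.919 over 17 alternative settings. Its direction turned to 0.24 when the ambiguous share entered the fit as a covariate, with an adjusted p value of 0.474.

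*Mthfd2l*, the mitochondrial paralogue of *Mthfd2*, had 114 to 148 normalized counts in the 8 libraries and a log2 fold change of 0.06 (standard error 0.123, 95% interval -0.20 to 0.33). Compared per length of exon, the level of *Mthfd2* was 3.33, 2.77, 2.49 and 1.47 times that of *Mthfd2l* in vehicle libraries 1 to 4. In corticosterone libraries 5 to 8, it was 4.89, 4.68, 4.60 and 3.93 times that of *Mthfd2l*. The ratio was therefore higher in every corticosterone library than in every vehicle library, which follows from the choice of *Mthfd2*. *Mthfd1*, the cytosolic enzyme that covers these folate steps, had a log2 fold change of -0.03 (95% interval -0.20 to 0.15). *Mthfd1l*, which makes formate in the mitochondrion, had one of 0.11 (95% interval -0.10 to 0.33). *Aldh1l2*, which oxidizes mitochondrial formyl folate to carbon dioxide, had one of 0.18 (95% interval -0.21 to 0.58).

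*Shmt1*, the cytosolic counterpart of *Shmt2*, had 72.7, 86.2, 71.4 and 81.0 normalized counts after vehicle. After corticosterone, it had 80.9, 135, 93.5 and 120. Corticosterone library 5 again lay at the vehicle level, and the other 3 were above every vehicle library. The estimate for *Shmt1* was 0.46 on the log2 scale (standard error 0.173, adjusted p = 0.507 from edgeR). Per length, *Shmt2* was expressed at 7.24 ± 1.17 times the level of *Shmt1* after vehicle (SD, n = 4) and at 4.64 ± 1.91 times after corticosterone (SD, n = 4). The ratio did not differ beyond the spread between mice (exact permutation test, two-sided p = 0.0857), with 7.36 in corticosterone library 5 and 3.14 to 4.53 in the other 3.

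**Figure D2:**
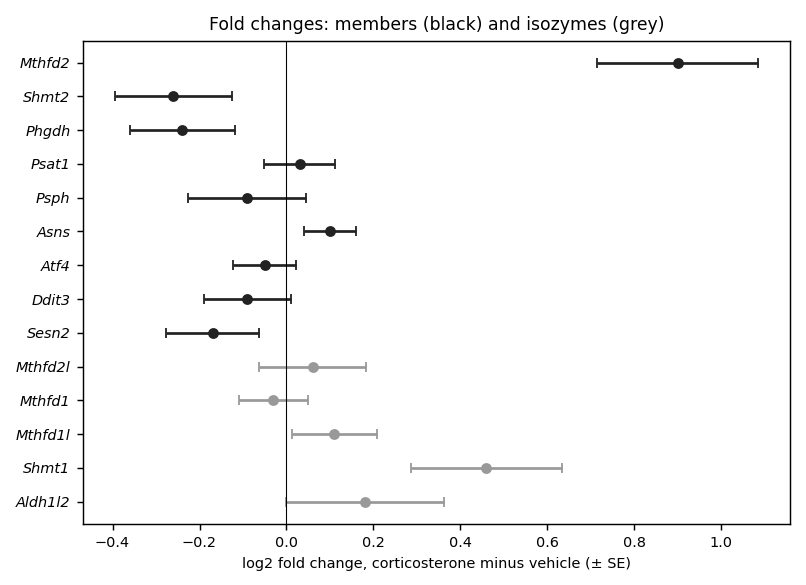
Log2 fold change of corticosterone over vehicle for *Mthfd2* and the 8 members with a test (black) and 5 isozymes (grey); points are the estimates of edgeR and bars their standard errors. *Mthfd2* is at 0.90, and the other members lie between -0.26 and 0.10.

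*Phgdh* (ENSMUSG00000053398, chromosome 3 from 98313170 to 98339990) encodes phosphoglycerate dehydrogenase, the first enzyme of serine synthesis. It had 825, 844, 715 and 755 normalized counts after vehicle. After corticosterone, it had 856, 655, 577 and 577. Corticosterone library 5 was the highest of all 8, and the other 3 were below every vehicle library. The means were 785 ± 60.3 (SD, n = 4) and 666 ± 132 (SD, n = 4), a log2 fold change of -0.24 (standard error 0.121, 95% interval -0.50 to 0.03). The adjusted p value was 0.546 from edgeR's quasi-likelihood test (exact permutation test, two-sided p = 0.171). Without corticosterone replicate 5, *Phgdh* reached -0.38 and an adjusted p value of 0.0203 in edgeR, within a range of 0.0203 to 0.919 over the alternatives. With the ambiguous share as a covariate, the direction turned to 0.07. The summed astrocyte markers were 1383 to 1512 CPM after vehicle and 1334 to 1436 CPM after corticosterone, with 1406 CPM in library 5, and their part in *Phgdh* was not tested.

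*Psat1* (ENSMUSG00000024640, chromosome 19 from 15904678 to 15947337) encodes phosphoserine aminotransferase, the second enzyme. Its values were 2558, 2151, 1975 and 2176 normalized counts after vehicle and 2133, 2290, 2287 and 2312 after corticosterone. Vehicle library 1 was the highest and vehicle library 3 the lowest, so the corticosterone values lay inside the vehicle range. The log2 fold change was 0.03, with a 95% interval of -0.15 to 0.20. Vehicle library 1 also had the highest summed level of the 6 oligodendrocyte markers, 5422 CPM against 3024 to 4039 CPM in the other 7 libraries, and the part of this difference in *Psat1* was not tested.

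*Psph* (ENSMUSG00000029446, chromosome 5 from 129765558 to 129787449) encodes phosphoserine phosphatase, which releases serine. It had 346, 319, 348 and 241 normalized counts after vehicle. After corticosterone, it had 357, 257, 280 and 286. Vehicle library 4 was the lowest and corticosterone library 5 the highest of all 8. The log2 fold change was -0.09 (95% interval -0.38 to 0.21), and with the ambiguous share as a covariate it was 0.41, with an adjusted p value of 0.287 from edgeR. Leaving out single libraries gave -0.20 (without vehicle replicate 4) to -0.03 (without corticosterone replicate 6). Of its exon length, 10.4% is shared with a transcript of *Cct6a* on the other strand, and the strand setting of the counting is not given in the sources used here. Thus, no enzyme of serine synthesis passed the test in either direction with all 8 libraries, where 0.00624% of all genes did. The 3 enzymes differed in which library was lowest.

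*Asns* (ENSMUSG00000029752, chromosome 6 from 7675169 to 7693254) encodes asparagine synthetase, a standard readout of ATF4. It had 2102, 2134, 2097 and 2113 normalized counts after vehicle. After corticosterone, it had 2167, 2279, 2297 and 2330, so all 4 were above every vehicle library. The difference was small, from 2111 ± 16.6 (SD, n = 4) to 2268 ± 70.8 (SD, n = 4), a ratio of 1.07 and a log2 fold change of 0.10 (standard error 0.0598, 95% interval -0.03 to 0.23). The exact permutation test gave the smallest two-sided p that 4 against 4 allow, 0.0286, whereas edgeR's quasi-likelihood test gave an unadjusted p of 0.108 and an adjusted p value of 0.571. The vehicle libraries varied by 0.785%, less than the 2.14% that counting error alone gives at a mean of 2188 reads, and edgeR, which shares information on the spread between genes, used a coefficient of 6.84%. Without corticosterone replicate 5, the adjusted p value was 0.160, the lowest of the alternatives, and the highest was 0.919.

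*Atf4* itself (ENSMUSG00000042406, chromosome 15 from 80255184 to 80257541) had 1941, 2001, 1991 and 1949 normalized counts after vehicle. After corticosterone, it had 2146, 1760, 1879 and 1834. Corticosterone library 5 was the highest of all 8, and the other 3 were below every vehicle library. The log2 fold change was -0.05 (95% interval -0.21 to 0.11, adjusted p = 0.801 from edgeR). It was -0.11 without corticosterone replicate 5, -0.01 without corticosterone replicate 6, and 0.09 with the ambiguous share as a covariate. Protein levels were not measured, and *Atf4* mRNA does not report the translation of ATF4.

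*Ddit3* (ENSMUSG00000025408, chromosome 10 from 127290774 to 127296288), which encodes the stress transcription factor CHOP, had 233 to 267 normalized counts after vehicle and 214 to 256 after corticosterone. Its log2 fold change was -0.09 (95% interval -0.31 to 0.12), and 6.13% of its exon length is shared with another gene model on the same strand. *Sesn2* (ENSMUSG00000028893, chromosome 4 from 132492032 to 132510501), a leucine sensor that restrains mTORC1, had 535, 524, 479 and 404 normalized counts after vehicle. After corticosterone, it had 480, 439, 425 and 389. Vehicle libraries 3 and 4 lay within the range of the corticosterone values, so the groups overlapped. The log2 fold change was -0.17 (95% interval -0.39 to 0.06, adjusted p = 0.592 from edgeR). *Trib3* (ENSMUSG00000032715, chromosome 2 from 152337422 to 152344032), a pseudokinase that is strongly raised in many cells under ATF4 and CHOP, had between 2 and 7 reads in each library. Of its 38 reads in all, 20 came from the corticosterone libraries (52.6%, exact 95% Clopper-Pearson interval 35.8% to 69.0%), which held 48.9% of all reads on genes. This interval covers counting error only.

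Among the 8 members with a test, all but *Mthfd2* and *Trib3*, the groups did not overlap in 1, *Asns*, where this was so in 3.66% of all genes tested (1.99% with corticosterone higher). None of the 8 passed an adjusted p value under 0.05 in edgeR, DESeq2 (the tool of the study) or limma-voom, and none had an unadjusted p value under 0.05 in these tools. Over all genes, 0.00624% passed the adjusted threshold in edgeR, namely *Fkbp5*, 0.406% passed it in DESeq2, and 9.03% had an unadjusted p value under 0.05 in edgeR. The study's own DESeq2 run, with another version, gave more genes past its threshold than the DESeq2 run here. Of the 8 log2 fold changes, 2 were above and 6 below 0, and their median was -0.09, where it was 0.00 over all genes tested.

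Among fits without 1 library, the one without corticosterone library 5 gave the most of these 8 members past the threshold. With *Mthfd2* included, this library was the highest corticosterone library in 6 of 9 members and the lowest in the other 3, where it was the highest in 37.2% and the lowest in 36.1% of all genes tested. Without it, 2 of the 8, *Shmt2* and *Phgdh*, passed the threshold with lower values, against 10.2% of all genes. The unadjusted p value was under 0.05 in 3 of the 8, with *Asns* added, against 29.0% of all genes. In that fit, *Asns* lay above, and *Shmt2*, *Phgdh* and *Atf4* below, every vehicle library, which is 4 of the 8 where 24.4% of all genes did not overlap. Without vehicle replicate 3, *Ddit3* joined *Asns* among the genes without overlap, with lower values, where 4.96% of all genes did not overlap. Without vehicle replicate 4, *Shmt2* and *Sesn2* had an unadjusted p value under 0.05, where 15.3% of all genes did. None of the 8 passed the threshold in that fit, where 0 of 16208 genes did. In the fit with the ambiguous share as a covariate, chosen after seeing the data, none of the 8 passed, where 38 of 16018 genes did. There, *Shmt2*, *Phgdh*, *Psph*, *Atf4* and *Sesn2* changed from negative to positive log2 fold changes. The log2 fold change of *Mthfd2* was between 0.72 and 1.31 in the 17 alternatives. These refit the libraries by which *Mthfd2* was chosen, so its positive sign in them follows from that choice. The ambiguous share separated vehicle libraries 1 to 3 from corticosterone libraries 6 to 8. The fit that holds it therefore cannot tell read ambiguity apart from treatment. The part of read ambiguity in these values was not tested otherwise, and no batch is named in the labels.

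**Figure D3:**
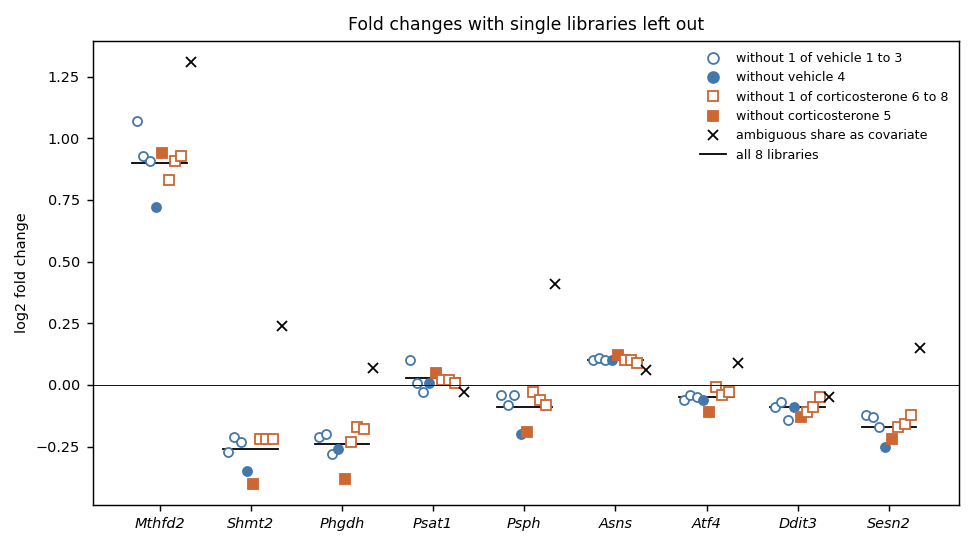
Log2 fold change of *Mthfd2* and the 8 members with a test, with all 8 libraries (line), with 1 library left out (circles for vehicle, squares for corticosterone, filled for vehicle 4 and corticosterone 5) and with the ambiguous share in the fit as a covariate (cross). *Mthfd2*, chosen by its rise in these libraries, lies between 0.72 and 1.31. *Shmt2* goes from -0.40 without corticosterone 5 to 0.24 with the covariate.

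The levels of the members were compared as CPM per kb of exon. *Atf4* was the highest, with a mean of 42.9 over the 8 libraries, and *Asns* followed with 41.8, and their ranges overlapped. *Psat1* (27.4) and *Phgdh* (15.2) each lay apart from their neighbours in this order. *Ddit3* (7.53), *Sesn2* (6.90) and *Shmt2* (6.90) could not be ordered, since their ranges overlapped. The same held for *Psph* (3.67) and *Mthfd2* (3.63), and *Trib3* was far below all others, with 0.117. Within serine synthesis, *Psat1* was thus above *Phgdh* and *Phgdh* above *Psph* in each comparison of ranges. *Mthfd2* ranged from 1.51 in vehicle library 4 to 5.43 in corticosterone library 6. *Mthfd1*, at 9.76, was above *Shmt2* and *Mthfd2*, whereas *Mthfd1l* (2.58), *Shmt1* (1.24), *Mthfd2l* (1.03) and *Aldh1l2* (0.580) had lower means than *Mthfd2*.

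**Figure D4:**
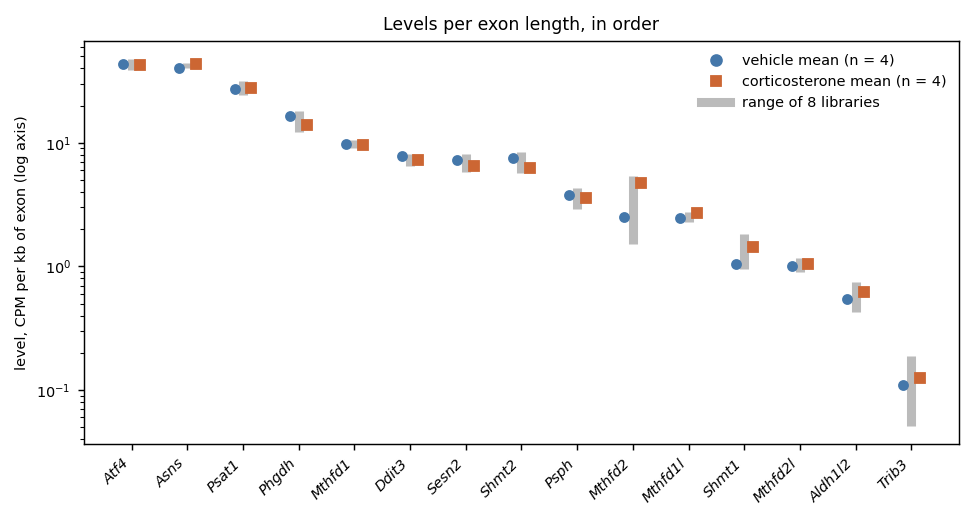
Levels of the 10 genes and 5 isozymes in CPM per kb of exon on a log axis, in order of the mean, with the range of the 8 libraries (bar) and the mean of each group (circle for vehicle, square for corticosterone, n = 4 each). *Atf4* and *Asns* are near 42 and *Trib3* is at 0.117.

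Other genes of these pathways were described from 7 lists of 118 genes without the members, of which 111 passed the filter. None passed the threshold in edgeR, and 8 of the 111, of which 5 were higher and 3 lower, had an unadjusted p value under 0.05, against 9.03% of all genes. The median log2 fold change of the 111 genes was 0.00, as over all genes tested. In 5 of them the groups did not overlap, 2 higher and 3 lower, against 3.66% of all genes. The summed levels of the lists overlapped between the groups in 5 of the 7 lists and in the members (437 to 483 CPM after vehicle and 448 to 479 CPM after corticosterone). They did not overlap in serine, glycine and proline handling (822 to 855 and 857 to 875 CPM) or in the tRNA synthetases (1788 to 1816 and 1820 to 1844 CPM), and no share over all genes was computed for such sums.

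Among the 10 tested genes of mitochondrial folate metabolism and glycine cleavage, *Gldc*, the glycine decarboxylase found mainly in astrocytes, had 822 to 962 normalized counts after vehicle and 594 to 801 after corticosterone, without overlap. The estimate for *Gldc* was -0.39 on the log2 scale (standard error 0.0993), and edgeR gave an adjusted p value of 0.313. *Slc25a32*, the carrier that takes folate into the mitochondrion, had one of 0.17. Of the 16 genes of cytosolic folate and the methionine cycle, *Mat2a*, which makes S-adenosylmethionine, had a log2 fold change of 0.31 (adjusted p = 0.499 from edgeR) and *Fpgs*, which adds glutamates to folates, one of -0.34. The medians of these lists were 0.03 and -0.03.

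In the list of serine, glycine and proline handling, 16 genes were tested, and the unadjusted p value was under 0.05 for 3 higher and 2 lower genes, where it was in 9.03% of all genes. In 4 of the 16 the groups did not overlap, where this was so in 3.66% of all genes. *Gpt2*, the mitochondrial alanine aminotransferase and another ATF4 target, had 1479 to 1711 normalized counts after vehicle and 1883 to 2203 after corticosterone, without overlap. *Gpt2* had an estimate of 0.32 on the log2 scale (standard error 0.0752) and an adjusted p value of 0.250 in edgeR. It was the only gene of the wider lists that passed with DESeq2 (adjusted p = 0.0403), where 0.406% of all genes passed. *Slc38a5*, a glutamine and glycine transporter, had 29.4 to 40.5 normalized counts after vehicle and 19.5 to 23.9 after corticosterone, also without overlap, and a log2 fold change of -0.70 (adjusted p = 0.443 from edgeR). *Slc1a5*, a neutral amino acid exchanger, had 9.87 to 25.5 and 21.4 to 44.1 normalized counts, which overlapped, and a log2 fold change of 0.90. The other genes of this list without overlap, named after their values were seen, were *Slc38a2*, a neutral amino acid transporter, with a log2 fold change of 0.19, and *Aldh18a1*, which starts proline synthesis, with one of -0.07.

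None of the 16 tested genes among the other ATF4 targets reached an unadjusted p value under 0.05, where 9.03% of all genes did, and their log2 fold changes lay between -0.35 and 0.18 with a median of -0.02. The 3 with the smallest p values were *Nupr1*, a stress-induced cofactor (-0.35, adjusted p = 0.545 from edgeR), *Cebpg*, a partner of ATF4 (0.11), and *Atf5* (-0.13). *Atf3*, *Gdf15* and *Fgf21*, which are low without stress, did not pass the filter. *Gpt2* and the transporters *Slc1a5* and *Slc38a2* were counted in serine, glycine and proline handling instead, so these 16 genes are only part of the ATF4 targets measured. None of the 20 cytosolic aminoacyl-tRNA synthetases, all of them tested, had an unadjusted p value under 0.05 (9.03% of all genes), with a median of 0.00 and a range of -0.20 for *Vars* to 0.16, while *Lars* had 0.15 and *Eprs* 0.11. The median of the 15 genes of eIF2, its kinases and its exchange factor was 0.09, with *Eif2ak1* at 0.11, *Eif2b2* at -0.15 and *Gcn1l1* at -0.16. For the 18 genes of the ATF6 and XBP1 arm of the unfolded protein response, it was 0.00, with *Syvn1* at -0.17, *Creld2* at -0.20 and *Hsp90b1* at 0.20.

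Without corticosterone replicate 5, 13 of these 111 genes passed the threshold (11.7%, where 10.2% of all genes did). The 6 higher ones were *Shmt1*, *Mat2a*, *Gpt2*, *Dars*, *Eif2s2* and *Hsp90b1*. The 7 lower ones were *Gldc*, *Slc7a10*, *Slc6a9*, *Slc38a3*, *Vars*, *Gcn1l1* and *Syvn1*, named, like the higher ones, after their values were seen.

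**Figure D5:**
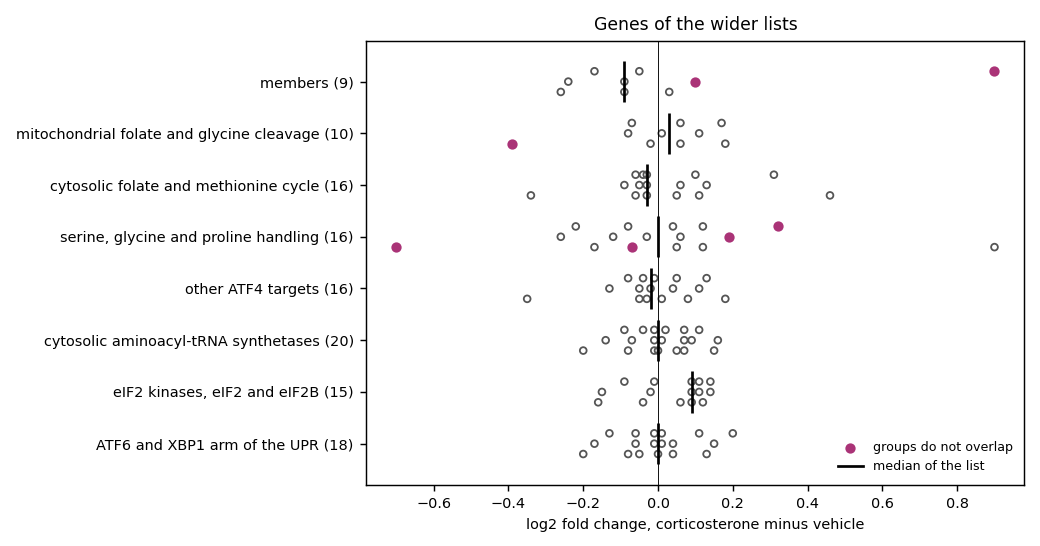
Log2 fold change of each gene that passed the filter in the members and the 7 wider lists (their number in brackets), with the median of each list (line) and filled points where the groups did not overlap. Apart from *Mthfd2* at 0.90 and *Slc1a5* at 0.90, the genes lie between -0.70 and 0.46, and the medians between -0.09 and 0.09.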

How the data were processed

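The authors isolated RNA from ventral hippocampus, made stranded mRNA libraries, mapped the reads with GSnap to mm10, summed them over genes in HTSeq-count and deposited raw counts. The annotation release and strand setting are not given in the sources used here. Of all reads in the table, 84.6% to 86.3% fell on genes, and the rows of HTSeq-count for other reads were left out of library sizes. Symbols, coordinates and exon lengths came from GENCODE M21 (GRCm38), which held 50462 of 50686 identifiers, and promoters from RefSeq (GRCm38.p6).

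From these counts, edgeR 4.0.16 in R 4.3.3 gave TMM-normalized counts and quasi-likelihood tests on genes kept by filterByExpr, with a threshold of 0.05 on Benjamini-Hochberg adjusted p values. The prior count for log2 values was 2. Exact two-sided permutation tests over the 70 assignments of mice were run for single genes. DESeq2 1.42.0 and limma-voom (limma 3.58.1) were alternatives, among 18 in all. The scripts were tested on simulated data.

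The members and lists were chosen with earlier results of these data known. Counts of calls leave out *Mthfd2*, which was chosen on this contrast. Named genes were the members, 5 isozymes, *Fkbp5*, the 3 genes of each list with the smallest p values and the 5 genes most like *Mthfd2*. Each library is 1 mouse according to the study's methods, and p values measure the spread between these mice. The depth limits *Trib3* most, with at most 7 reads.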

Additional observations from a re-analysis of the deposited data

Results flagged for a closer look

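For the 10 genes and 5 isozymes, each in both groups, 30 sets of 4 values were searched for a library that stands apart from the remaining 3. There were 2 such sets, and about 1 in 20 would be found by chance. Both concerned corticosterone library 5. It had 477 normalized counts of *Shmt2*, whereas the 3 other corticosterone mice had 338 to 339. It had 2133 of *Psat1*, whereas the others had 2287 to 2312.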

How the results depend on the processing

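No paired analysis was possible because no replicate number occurs in both groups. In the main analysis, 1 gene passed the threshold. This was 64 with DESeq2, 79 with no filter on low counts, 0 with at least 10 counts in every library (1330 genes at an unadjusted p under 0.05 in edgeR), 1103 without vehicle replicate 1 and corticosterone replicate 5 together, and 38 with the ambiguous share as a covariate. With 1 library left out, it was between 0 and 1651. Of the 8 members with a test, 0 passed it, 1 without both libraries, and 0 to 2 with 1 library left out. Those at an unadjusted p under 0.05 in edgeR numbered 0, and 2 with no filter (8.90% of all genes), 2 without both libraries (27.4%), 1 with the covariate (11.7%), and 0 to 3 with 1 left out (4.69% to 29.0%). Those without overlap numbered 1 (3.66% of all genes), and 1 to 4 with 1 left out (4.87% to 24.4%). The median log2 fold change of these 8 and *Mthfd2* together was -0.09, between -0.13 and -0.03 with 1 library left out, and 0.09 with the covariate. That covariate turned *Atf4* to 0.09, *Phgdh* to 0.07, *Psph* to 0.41, *Sesn2* to 0.15, *Shmt2* to 0.24 and *Psat1* to -0.03, and *Psat1* was also -0.03 without vehicle replicate 3, and between -0.03 and 0.10 with any 1 library left out. Without both libraries, *Phgdh* had an adjusted p value of 0.0391 in edgeR. In serine, glycine and proline handling, 1 gene passed with DESeq2 (0.406% of all genes) and 0 in edgeR (0.00624% of all genes). The cause of these differences was not tested. The covariate was chosen after seeing the data and went largely with the group, so its fit cannot tell read ambiguity apart from treatment. At 4 mice per group, the intervals above allow changes of up to 0.55 on the log2 scale in *Shmt2*, and *Trib3* is limited by depth.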
